A study of Homo sapiens with 4 samples.

Results

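IL32 and 9 other genes for secreted inflammatory cytokines (CCL2, CXCL8, CXCL1, CXCL2, CXCL3, IL6, IL11, LIF and IL1B) were followed in TPC1 cells, an established human papillary thyroid cancer line. The genes were selected by name with measured values of this same comparison in view, so their levels are given as a description without a test. Of the 10 genes, 9 were listed among the 13165 genes of the deposited table, and IL1B was not listed. TPC1-INAVA cells, labelled TPC1-C1orf106 after the older name of INAVA, carried a retroviral vector for full-length human INAVA, and TPC1-Vector cells carried the empty vector. Both were puromycin-selected stable lines grown in DMEM with fetal bovine serum, and each group had 2 libraries. The promoter that drives the INAVA insert is not given in the sources used here. With 1 stable line per group, a difference between the lines and an effect of INAVA cannot be told apart.

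Cytokines are small secreted proteins through which cells signal to each other during inflammation. Chemokines such as CCL2 and the CXCL family draw in leukocytes, while IL6, IL11 and LIF act through receptors that share the signalling chain gp130 (IL6ST). Several of these genes are known targets of the transcription factor NF-κB. INAVA is itself known as an activator of innate immune signalling, and tumour cells can make these cytokines without any immune cell present.

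Levels are in FPKM, by its plain definition numbers of fragments divided by transcript length and by all mapped fragments. The authors deposited 1 combined value per gene and group. No error can be given for any value, and the sequencing depth is unknown. Differences are given on the scale of log2(FPKM + 0.5), as TPC1-INAVA minus TPC1-Vector, for the 12305 genes whose mean over the groups reached 0.5 FPKM. On this scale the median over these genes was 0.0033, with quartiles of -0.12 and 0.13. INAVA, listed as C1orf106, was at 7.96 FPKM in TPC1-Vector against 123 FPKM in the group labelled for it. Of the thyroid markers, PAX8 (60.1 and 55.7 FPKM) and FOXE1 (5.26 and 5.89 FPKM) were listed, and TG, TSHR and NKX2-1 were not. Of 5 epithelial markers 3 were listed, and these keratins went different ways. KRT8 was at 23.4 FPKM in the vector cells against 10.5 FPKM in TPC1-INAVA, a log2 difference of -1.12, KRT18 was at 140 and 212 FPKM, and KRT7 at 1.97 and 2.01 FPKM. Of 4 fibroblast markers 2 were listed, both lower in TPC1-INAVA, with COL1A1 at 0.937 and 0.571 FPKM and PDGFRB at 2.24 and 1.39 FPKM. None of 3 endothelial markers was listed. Of 16 immune cell markers 3 were listed, and the leukocyte marker PTPRC and the T cell markers CD3D and CD3E were not among them. CD14 was at 0.295 and 0.236 FPKM and LYZ at 0.891 and 0.940 FPKM, while CD68, a lysosomal protein abundant in macrophages, was at 5.76 and 8.67 FPKM. The summed level of the immune markers was 6.95 FPKM without and 9.85 FPKM with the INAVA vector, and the part of any of these markers in the cytokine levels was not tested. In bulk RNA, more cells making a transcript and more transcript per cell cannot be told apart.

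All 9 listed cytokine genes passed the filter. CXCL3 passed it only through its value in TPC1-INAVA, being under 0.5 FPKM in the vector group. Of these, 8 were higher in TPC1-INAVA and 1 was lower, whereas 50.8% of all genes kept were higher by any amount. At least 2-fold higher were 2 of the 9 (IL32 and CCL2), against 0.61% of all genes kept, and none was at least 2-fold lower, against 0.244%. At least 1.5-fold higher were 4 of the 9 (IL32, CCL2, IL11 and IL6), against 2.24% of all genes, and none was 1.5-fold lower, against 1.45%. Since the genes were chosen on this comparison, nothing is read from the distance between these shares. The median difference of the 9 genes was 0.52 on the log2 scale, which is the value of CXCL3. The plot of the levels of the listed genes shows both values of each gene.

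**Figure D1:**
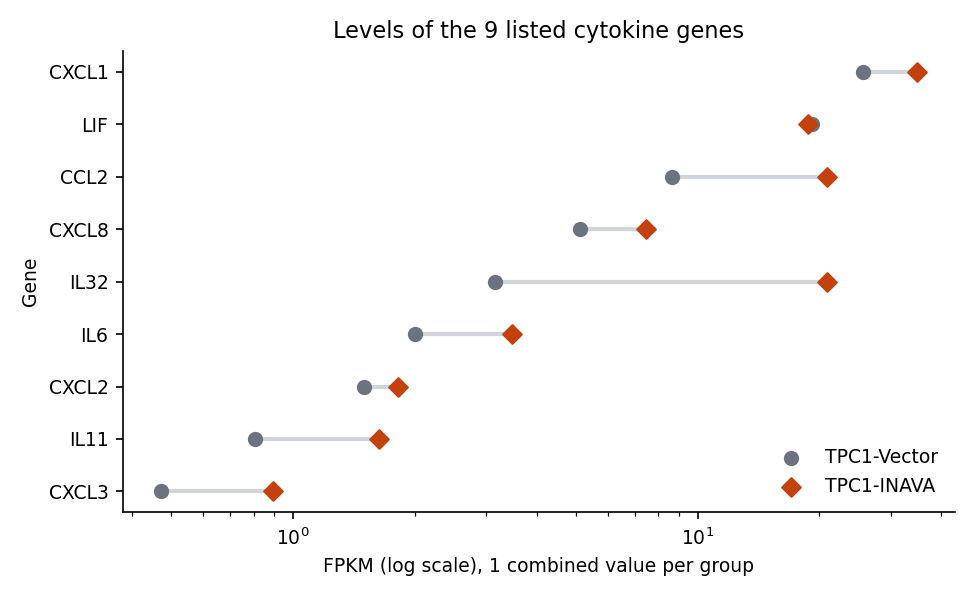
FPKM of each listed cytokine gene in TPC1-Vector (circles) and TPC1-INAVA (diamonds) on a log axis, 1 combined value per group and no error bars, with genes ordered by the TPC1-Vector value. The longest line is that of IL32, from 3.16 to 20.8 FPKM, and the points of LIF lie on each other at 19.2 and 18.8 FPKM.

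IL32, an inflammatory cytokine without close relatives, showed the greatest difference of the 9. Its level was 3.16 FPKM in TPC1-Vector against 20.8 FPKM in TPC1-INAVA, giving a ratio of 6.59 and a log2 difference of 2.54. In TPC1-Vector it lay at percentile 22.1 of the genes kept, and in TPC1-INAVA at percentile 67.2. Only 6 of the 12305 genes had a greater log2 difference, and 3 of those 6 (RNVU1-4, RNVU1-20 and SNORA58, small RNAs) were listed at 0 in TPC1-Vector. The other 3 were INAVA, SLPI and KLRC1, of which SLPI was at 0.162 FPKM and KLRC1 at 0.173 FPKM in TPC1-Vector. Among genes above 0 in both groups IL32 thus ranked 4 by log2 difference with 0.5 FPKM added. In the plain ratio it ranked lower, since for instance PDZK1IP1 (6.99), KRTAP2-3 (7.82) and LTB (10.4) had greater ratios. By the difference in FPKM itself, 17.7, IL32 ranked 273.

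IL32 lies on chromosome 16 (3065312 to 3069819, hg38, forward strand), and GENCODE release 29 annotates 35 transcripts for it, of which 30 are coding, with 4 to 8 exons each. These transcripts share a single value in the table. Within 500 kb of its start 26 other genes were kept, 19 of them higher, with a median log2 difference of 0.09 and none past 2-fold in either direction. The genes nearest to IL32 over its group values of log2(FPKM + 0.5) were TAGLN, PDPN, RGS4, TGFBI and FGF1. TAGLN, a smooth muscle actin-binding protein, was at a distance of 0.18, with 3.55 and 22.5 FPKM. PDPN, a membrane glycoprotein, followed at 0.69, and the farthest of the 5 was FGF1, a growth factor, at 0.94. Likeness over 2 values only says that the levels were alike in these groups.

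CCL2, the chemokine that attracts monocytes, stood at 8.67 FPKM in the vector cells and at 20.8 FPKM in TPC1-INAVA. The ratio was 2.40 and the log2 difference 1.22, which ranked 44 among all genes kept. IL32 and CCL2 were thus at nearly the same level in TPC1-INAVA, whereas in TPC1-Vector the level of IL32 was 0.365 times that of CCL2. CCL2 lies on chromosome 17 (34255277 to 34257201), and no other gene with a start within 500 kb of it passed the filter, although several chemokine genes are known to lie beside it.

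The 4 CXC chemokines, which attract neutrophils through the receptors CXCR1 and CXCR2, lie within 359 kb of chromosome 4. All 4 were higher in TPC1-INAVA, with ratios from 1.21 to 1.89, and none reached 2-fold. CXCL1 was the most abundant of the 9 cytokine genes in both groups, with 25.7 FPKM in the vector cells against 34.8 FPKM in TPC1-INAVA. Its ratio was 1.36 and its log2 difference 0.43. CXCL8, the gene of interleukin 8, was at 5.11 and 7.47 FPKM, a ratio of 1.46 and a log2 difference of 0.51.

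CXCL2 was at 1.499 and 1.81 FPKM, with the smallest ratio of the cluster at 1.21 and a log2 difference of 0.21. CXCL3 was the weakest of the 9 genes in both groups, at 0.472 and 0.893 FPKM. Its ratio of 1.89 was the greatest of the cluster, but with 0.5 FPKM added its log2 difference was 0.52, close to that of CXCL8. Levels within the cluster therefore differed far more than the groups did. CXCL1 was 54.4 times CXCL3 in TPC1-Vector and 39.0 times CXCL3 in TPC1-INAVA.

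The other genes kept beside the cluster were not higher in TPC1-INAVA. MTHFD2L, a mitochondrial folate enzyme whose start lies 61.1 kb from that of CXCL2, was at 1.52 and 1.51 FPKM. The EGF receptor ligands AREG (1.10 and 1.02 FPKM) and EREG (2.25 and 1.26 FPKM) were lower in TPC1-INAVA, neither of them past 2-fold.

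CXCL1, CXCL2 and CXCL3 are close copies of each other. Their coding sequences, 324 bases each, were 93.5% identical between CXCL1 and CXCL2, 90.7% between CXCL1 and CXCL3 and 94.4% between CXCL2 and CXCL3. CXCL8 was 51.7% to 54.2% identical to them. The longest run of identical bases shared by 2 of the transcripts was 97, between CXCL2 and CXCL3. Of all windows of 75 bases in the CXCL2 transcript, 2.01% also occurred in CXCL3, and of those in the CXCL1 transcript 0.293% occurred in CXCL2 and 0% in CXCL3. How the counting treated reads that match more than 1 gene is not given in the sources used here, and an exchange of reads was not tested.

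The starts of these genes also look alike. In the 250 bases before each RefSeq start (GRCh38.p14), both strands were searched for the κB consensus, the binding motif of NF-κB. It was found in 5 of the 8 promoters that had an entry, among them that of IL32, and in 9.57% of all 27305 promoters. CCL2 and LIF had no promoter entry and were not searched, and the 8 include IL1B, which has no expression value here. The genes were picked as inflammatory cytokines, several of them known NF-κB targets. The matches of CXCL1, CXCL2 and CXCL3 lie in promoters that are much alike, so they are not separate cases. Nothing is therefore read from the distance between these shares. To let the matches be compared, the κB match of each of the 5 is printed, and for CXCL8 a shorter motif, GGAATTTCC, which was added after the first search. This motif, which overlaps the κB match of CXCL1, CXCL2 and CXCL3, was found in 4 of the 8 promoters and in 0.428% of all promoters. Since it was added after the first search and its letters are part of those κB matches, nothing is read from this count. Each line gives 30 bases 5′ to 3′ on the strand of the gene, with the match in capitals:
IL32: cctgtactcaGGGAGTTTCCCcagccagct
CXCL1: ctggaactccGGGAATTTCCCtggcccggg
CXCL2: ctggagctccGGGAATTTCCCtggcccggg
CXCL3: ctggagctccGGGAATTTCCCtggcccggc
IL6: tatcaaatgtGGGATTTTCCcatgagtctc
CXCL8: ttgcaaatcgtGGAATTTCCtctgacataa

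In IL32 and the CXCL1, CXCL2 and CXCL3 promoters the capitals cover 2 overlapping matches, 1 on each strand. The IL32 window lies on the forward strand at chr16:3065294-3065323, 99 to 89 bases before the RefSeq start at the capitals. The CXCL1 (chr4:73869304-73869333, forward) and CXCL3 (chr4:74038749-74038778, reverse) matches lie 79 to 69 bases before their starts, and that of CXCL2 (chr4:74099254-74099283, reverse) 78 to 68 bases. The IL6 window is at chr7:22727117-22727146 and the CXCL8 window at chr4:73740467-73740496, both forward. The table places the starts of IL32, CXCL2, CXCL3 and IL6 farther upstream than RefSeq, so these 4 windows overlap the genes as listed. The start of CXCL8 is also listed farther upstream, at 73740506 against 73740569 in RefSeq. The CXCL8 window ends before either start but lies nearer to the listed one. Over the whole 250 bases the promoters of CXCL1 and CXCL3 were 81.4% identical, those of CXCL2 and CXCL3 73.3% and those of CXCL1 and CXCL2 68.0%. The 3 genes thus carried the same 11 letters at nearly the same place, and the part of this motif in their levels was not tested.

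The AP-1 motif TGANTCA was found in 2 of the 8 promoters, those of CXCL8 and IL11, and in 6.60% of all promoters. IL11, which had no κB match in these 250 bases, is shown for this motif (chr19:55370542-55370571, reverse strand):
IL11: aggcagggagggTGAGTCAggatgtgtcag
CXCL8: taggaagtgtgaTGACTCAggtttgccctg
The CXCL8 window is at chr4:73740420-73740449 on the forward strand. Of the other motifs searched, C/EBP (TTNNGNAA) was found in 3 of the 8 promoters and in 33.6% of all promoters. TATAAA, searched on 1 strand only, was found in 1 of the 8 and in 7.17% of all promoters. A match gives letters only, and no binding was measured here.

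The 3 listed ligands that signal through gp130 did not move alike. IL6, the main inducer of the acute phase response, had 2.01 FPKM in the vector group against 3.48 FPKM in TPC1-INAVA, a ratio of 1.73 and a log2 difference of 0.67. A noncoding gene, LOC541472, is listed at the same position (chromosome 7, 22725395 to 22732002) with 0.561 and 0.536 FPKM. Without a stated strand setting, reads of both cannot be told apart. IL11, which acts on stromal and haematopoietic cells, was at 0.807 and 1.63 FPKM, a ratio of 2.02. Its log2 difference was 0.71 with 0.5 FPKM added and 1.02 with nothing added, so that IL11 was past 2-fold only in the plain ratio.

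LIF, known for keeping mouse stem cells undifferentiated in culture, was the only one of the 9 genes that was lower, and by little. It was at 19.2 FPKM in the vector cells against 18.8 FPKM in TPC1-INAVA, with a log2 difference of -0.03 that lay within the quartiles of all genes. LIF was the second most abundant of the 9 genes in TPC1-Vector and the fourth in TPC1-INAVA, behind CXCL1, IL32 and CCL2. The genes of IL11 (chromosome 19) and LIF (chromosome 22) had 24 and 15 other genes kept within 500 kb, with median log2 differences of 0.05 and 0.03, and none of these passed 2-fold.

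**Figure D2:**
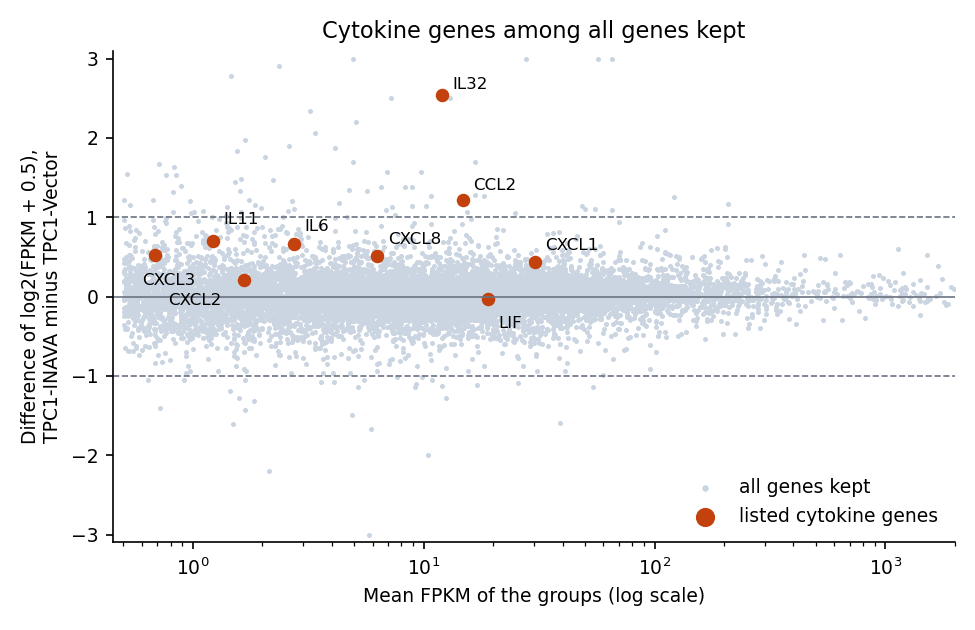
Difference of log2(FPKM + 0.5), TPC1-INAVA minus TPC1-Vector, against the mean FPKM of the groups on a log axis, for the genes kept (grey) and the 9 cytokine genes (labelled), with dashed lines at 2-fold. IL32 at 2.54 and CCL2 at 1.22 lie above the upper line and LIF at -0.03 on the zero line. The 5 genes with a difference beyond 3 are drawn at 3, and the 12 genes above 2000 FPKM are not drawn.

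Added over the 9 genes, the level was 66.5 FPKM in the vector group against 111 FPKM in TPC1-INAVA, or 1.66 times as much. IL32 made up 40.2% of the difference between these sums, CCL2 27.6% and CXCL1 20.9%, together 88.6%. The remaining genes added little, CXCL8 the most of them with 5.37%, and abundant LIF took away from the difference (-0.905%). Without IL32 the sums were 63.4 and 89.7 FPKM, a ratio of 1.42. IL32 was 4.75% of the summed level in TPC1-Vector and 18.9% in TPC1-INAVA, whereas LIF was 28.8% and 17.0%. The order of the 9 genes changed only through IL32, at place 5 in TPC1-Vector and place 2 in TPC1-INAVA, which passed CXCL8, CCL2 and LIF, and through CCL2, which passed LIF. Whether neighbours in this order differ beyond their spread cannot be said from 1 value per group.

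The amount added to FPKM before the log mattered for the weak genes. The difference ranged from 2.39 to 2.72 for IL32 and from 1.17 to 1.26 for CCL2 over all settings tried, but from 0.54 to 1.02 for IL11 and from 0.36 to 0.92 for CXCL3. The plot of the differences by FPKM added gives these values for all 9 genes. LIF stayed below 0 and the 8 others above 0 under every scaling, while a filter or an added amount cannot change a sign. The difference of LIF ran from -0.05 to -0.02, and with 1 value per group its direction cannot be told.

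**Figure D3:**
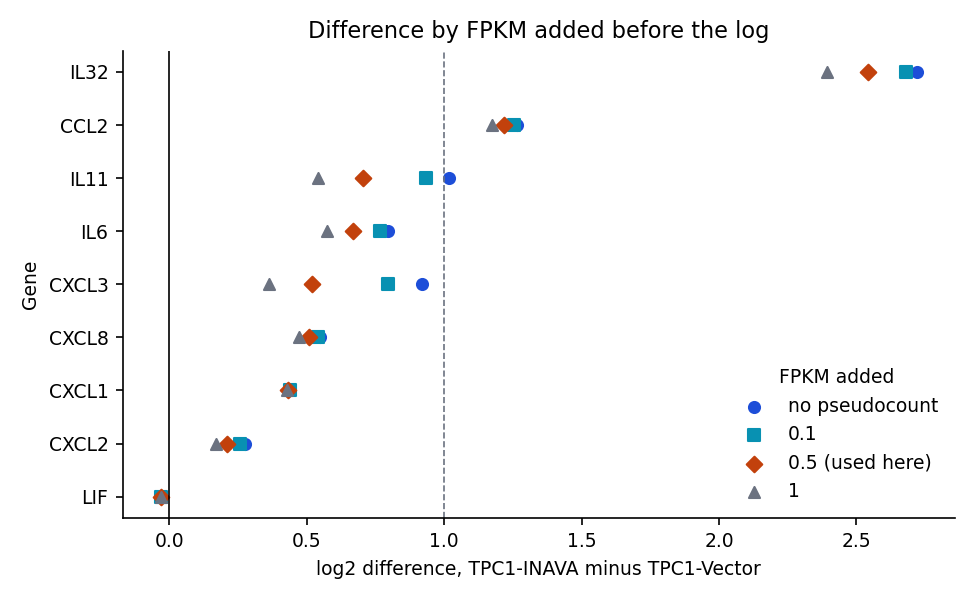
log2 difference of each listed cytokine gene, TPC1-INAVA minus TPC1-Vector, with nothing, 0.1, 0.5 or 1 FPKM added to both values, with a solid line at 0 and a dashed line at 2-fold. IL32 and CCL2 lie beyond the dashed line with each amount, and IL11 only with nothing added, at 1.02.

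Other genes of cytokine signalling were taken from lists, with the cytokine genes above left out. Over all lists 67 genes were listed and 61 passed the filter, with a median log2 difference of 0.09. Of the 61, 40 were higher and 21 lower, whereas 50.8% of all genes kept were higher. At least 2-fold higher were 4 of the 61 (LTB, EBI3, SIGIRR and DUSP1, from 4 different lists), against 0.61% of all genes kept. None was 2-fold lower, against 0.244%. LTB and EBI3 were under 0.5 FPKM in TPC1-Vector and passed the filter only through the group in which they were high. The lists were also chosen with earlier results known, so nothing is read from this count against that of all genes.

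Most of the chemokines besides the 5 above were not listed. Of 29 others 4 were listed and 3 passed the filter, with a median log2 difference of 0.02. CX3CL1, a membrane-bound chemokine, was at 2.20 and 1.72 FPKM, and CXCL16 at 2.01 and 2.05 FPKM. CCL26, an attractant of eosinophils, was below the filter at 0.200 and 0.697 FPKM.

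Of 36 other interleukins and haematopoietic cytokines 16 were listed and 13 passed the filter, 6 of them higher and 7 lower, with a median of -0.10. The most abundant was MIF, at 1165 and 1270 FPKM. LTB, which forms a membrane-bound complex with lymphotoxin alpha, was the only one past 2-fold, with 0.146 FPKM in the vector cells against 1.51 FPKM in TPC1-INAVA. Its ratio was 10.4 and its log2 difference 1.64, and it was kept only through its TPC1-INAVA value. IL24, at 0.0815 and 0.572 FPKM with a ratio of 7.02, did not pass the same filter. CSF2, the granulocyte-macrophage factor, was at 1.58 and 2.81 FPKM and KITLG, the ligand of KIT, at 11.2 and 17.3 FPKM. SPP1, the gene of osteopontin, differed in the other direction, with 126 and 77.3 FPKM. Genes of this list thus differed in both directions. LTB and MIF are listed on alternate sequences of their chromosomes. How reads that match both an alternate sequence and the main chromosome were treated is not given in the sources used here.

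Of 7 other ligands of the IL6 family 4 were listed and kept, with a median of 0.11. EBI3, a subunit of IL27 and IL35, was at 0.463 and 1.51 FPKM, a log2 difference of 1.06, and was likewise kept only through TPC1-INAVA. The most abundant, CLCF1, was at 4.62 and 4.94 FPKM.

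None of the receptors kept passed 2-fold. Of 19 receptors and co-receptors 12 were listed and 10 kept, 5 higher and 5 lower, with a median of 0.05. CXCR1, CXCR2 and CCR2, the receptors of the CXC chemokines and CCL2, were not listed. The shared chain IL6ST was at 39.0 and 38.1 FPKM, IL6R at 3.20 and 3.56 FPKM, IL11RA at 2.65 and 2.89 FPKM, and LIFR at 5.29 and 4.08 FPKM. The most abundant was SDC4, a heparan sulphate proteoglycan, at 93.4 and 136 FPKM. Of 15 targets of gp130 signalling 9 were kept, 7 higher and 2 lower, with a median of 0.09 and none past 2-fold. Among them, the feedback inhibitor SOCS3 had a ratio of 1.03, with 12.4 FPKM in TPC1-INAVA, the transcription factor STAT3 was at 28.9 and 35.8 FPKM, and MCL1, the most abundant, at 149 and 154 FPKM.

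Of 14 genes for IL1 maturation and its antagonists 8 were listed and kept, 7 of them higher, with a median of 0.28. NLRP3, a sensor of the inflammasome, was at 6.34 and 10.1 FPKM and NLRP1, another sensor, at 0.769 and 1.53 FPKM. CASP1, the protease that matures IL1B, was not listed, like IL1B itself. SIGIRR, an inhibitory receptor of this family, was past 2-fold with 1.06 and 2.88 FPKM, a log2 difference of 1.11. The most abundant, the pore-forming GSDMD, was at 43.1 and 44.1 FPKM and, like LTB and MIF, is listed on an alternate sequence of its chromosome.

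Of 17 inducible regulators of cytokine mRNA and signalling 15 were kept, 11 higher and 4 lower, with a median of 0.05. DUSP1, a phosphatase that switches off MAP kinases, was at 10.4 and 26.0 FPKM, a log2 difference of 1.27, and alone passed 2-fold on this scale. SOCS2, at 0.293 and 0.825 FPKM, had a greater plain ratio (2.81 against 2.48 for DUSP1) but a log2 difference of 0.74. It was kept only through its TPC1-INAVA value. ZFP36, which promotes the decay of cytokine mRNA, was at 3.51 and 3.26 FPKM, and ZC3H12A, a ribonuclease with the same kind of targets, at 1.72 and 2.08 FPKM. The most abundant, KHSRP, was at 79.1 and 79.5 FPKM.

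**Figure D4:**
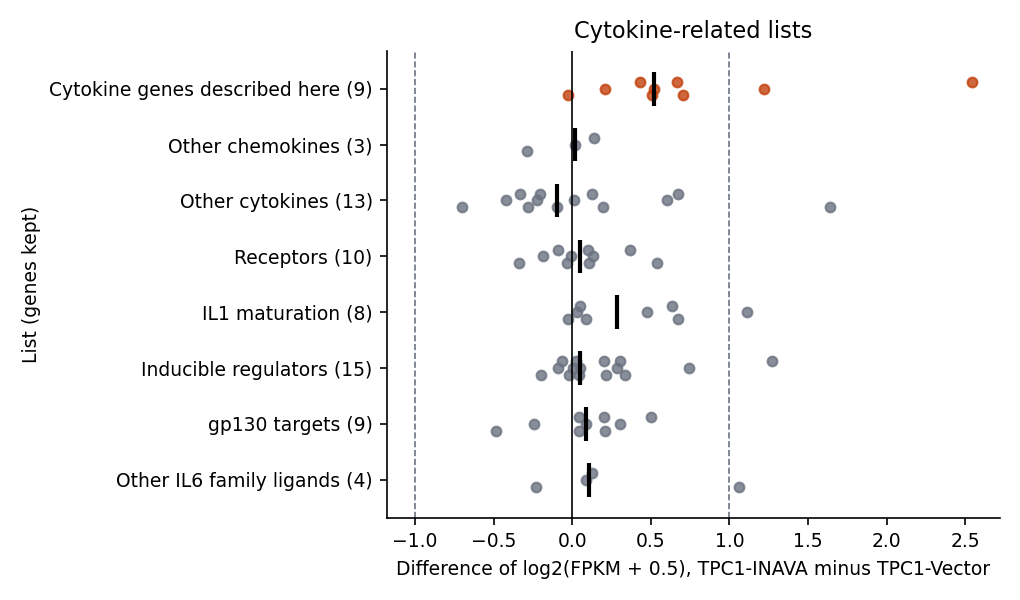
Difference of log2(FPKM + 0.5), TPC1-INAVA minus TPC1-Vector, of each gene kept in 7 cytokine-related lists and of the 9 cytokine genes described here (top row), with the number of genes kept in parentheses, bars at the medians and dashed lines at 2-fold. The median of the 9 genes is 0.52, the value of CXCL3, and those of the lists run from -0.10 to 0.28. The 9 genes were chosen on this comparison, so nothing is read from this contrast.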

How the data were processed

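RNA of TPC1-Vector and TPC1-INAVA cells was sequenced from 2 libraries per group. The authors deposited FPKM values (by the plain definition, fragments divided by transcript length and by all mapped fragments), 1 per gene and group. Whether Cuffdiff scaled them further was not tested. The libraries had therefore been combined, and depth per library, spread between libraries and counting error are unknown. The submitters' processing notes name CASAVA, Cufflinks 2.1.1, Cuffdiff and hg38; the aligner, the annotation and the strand setting are not given in the sources used here. The table also holds a log2 ratio, a direction, a p-value and a q-value per gene from the authors' own comparison, which were not used. Differences between groups have no replicate check and no test.

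Genes whose mean over the groups reached 0.5 FPKM were kept. Differences were taken between values of log2(FPKM + 0.5), a scale on which changes of weak genes come out too small. A gene was counted as different from 2-fold on this scale. The planned limma fit needs values per library and was not run. The cytokine genes and the gene lists were chosen with earlier results of these data known. The text names every cytokine gene, the most abundant gene of each list and those past 2-fold, the genes within 500 kb of a cytokine gene that passed 2-fold, and the 5 genes nearest to IL32 over the group values. Other genes were named after their values were seen. Starts are given 1 base above those listed, because 2605 of 12069 matched starts then equal those of RefSeq, against 313 as listed. Sequences came from RefSeq (GRCh38.p14) and GENCODE release 29. Coding sequences were the longest open reading frames of annotated transcripts, and pairs were aligned globally with biopython 1.88. Counting was tested on simulated data. Python 3.11.15, numpy 2.4.6, pandas 2.3.3 and matplotlib 3.10.9 were used. Alternatives were pseudocounts of 0.1 and 1 and none, no filter, a mean filter at 1 FPKM, median-of-ratios scaling, quantile normalization, rescaling to the summed FPKM of the genes kept, and a fold of 1.5.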

Additional observations from a re-analysis of the deposited data

How the results depend on the processing

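No paired analysis was possible because the table has 1 value per group, and for the same reason no library could be left out in turn. The 2 cytokine genes at least 2-fold higher were 3 without a pseudocount and 4 from 1.5-fold. The 75 genes higher and 30 lower among all genes were 121 and 58 with a pseudocount of 0.1, 151 and 68 with none, and 276 and 179 from 1.5-fold. The pseudocount shrinks the change of weak genes by construction. The 4 genes of the lists at least 2-fold higher were 2 with a pseudocount of 1 and 2 with the mean filter at 1 FPKM, and from 1.5-fold 9 were higher and 1 lower. The scalings moved none of these counts by over 1.5 times. Because depth is unknown, no counting error can be stated, which matters most for CXCL3, IL11 and CXCL2.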
